A study of Mus musculus with 111 samples.

Results

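Control mouse embryos at the 2-cell stage differed among themselves in how much of their sequenced RNA came from mitochondria, and the embryos at both ends of that range were compared here. The embryos, of strain B6129F1, came from germinal vesicle oocytes that received 2 negative control siRNAs (20 µM of each) together with H2B-EGFP marker RNA at 150 ng/µl. The oocytes stayed 5 h in medium that keeps them arrested, had 12 h to mature, and were then fertilized in vitro and grown in KSOM medium. Each library was made from 1 embryo by SmartSeq2 with oligo dT priming, so it holds polyadenylated RNA. The share was the sum of the estimated counts of the 13 mitochondrial mRNAs over all counts of the library. The embryos were chosen by this measured share: in each of 3 experiments the control embryos were divided by 3, rounded down, and that number with the highest shares was set against as many with the lowest. This gave 18 high embryos (8, 2 and 8 in experiments 1, 2 and 3) and 18 low embryos (also 8, 2 and 8), which are 36 of 56 control embryos and of 111 embryos in all, with 20 control embryos in between. The same rule applied to the embryos injected with siRNAs against the nuclear receptor gene Nr5a2 and with marker RNA for H2B-rsEGFP gave 17 high and 17 low knockdown embryos of 55, which share no sample with the controls.

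A mouse mitochondrion holds its own small circular genome, whose mRNAs code for core subunits of respiratory complexes I, III and IV and of the ATP synthase. All other mitochondrial proteins, including the RNA polymerase and ribosomal proteins that express this genome, are encoded in the nucleus and imported. The fertilized egg inherits its mitochondria from the oocyte, and in the mouse the mitochondrial genome is largely not replicated during the first cleavages, so the 2-cell embryo works with a maternal stock while the nuclear genome becomes active. Mammalian nuclear genomes also carry copies of stretches of mitochondrial DNA, and RNA from such a copy and from the mitochondrion can be identical in sequence.

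Since the share chose the embryos, its values and those of the mitochondrial mRNAs are given as a description with no test. Control embryos ranged from 5.47% to 14.0% in experiment 1, from 4.28% to 6.54% in experiment 2 and from 4.85% to 9.31% in experiment 3, a span of 2.56, 1.53 and 1.92 times. In experiment 1 the high embryos had shares of 9.18% to 14.0% with a median of 10.7%, and the low embryos 5.47% to 6.85% with a median of 6.45%. In experiment 2 the high embryos had 6.52% and 6.54%, and the low embryos 4.28% and 5.40%. In experiment 3 the high embryos had 7.52% to 9.31% with a median of 7.97%, and the low embryos 4.85% to 5.84% with a median of 5.57%. The mean of the high embryos was thus 1.80, 1.35 and 1.48 times that of the low embryos in the 3 experiments. The sets were cut from a continuous range. In experiment 1 the lowest high embryo stood at 9.18% beside 9.15% for the nearest middle embryo, and the highest low embryo at 6.85% beside 6.86%. In experiment 3 the neighbours across the upper limit were 7.52% and 7.35%, and across the lower limit 5.84% and 6.30%. Because the sets were formed within each experiment, both high embryos of experiment 2 had lower shares than the highest low embryo of experiment 1, at 6.85%.

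**Figure D1:**
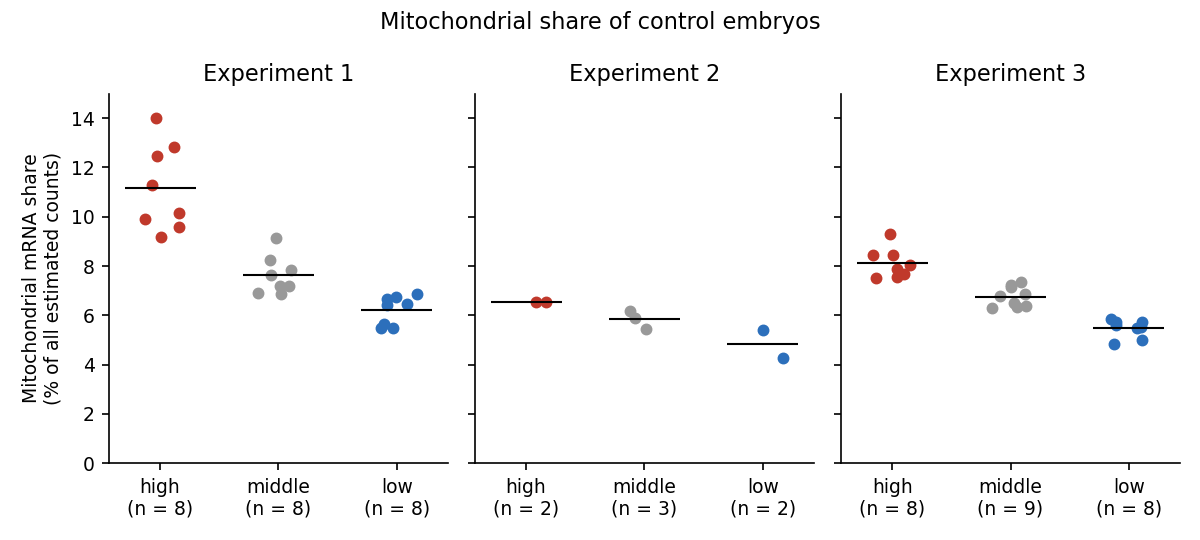
Share of all estimated counts in the 13 mitochondrial mRNAs for each of the 56 control embryos (vertical axis, percent), by experiment and by high, middle or low set. Each point is 1 embryo and each line the mean of its set, and the sets follow each other without a gap in experiment 1, where the high embryos reach 14.0%.

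All 13 mitochondrial mRNAs were part of the difference. The 3 genes taken as markers of the sets were mt-Nd2 and mt-Nd3, which code for subunits of complex I, and mt-Co2, which codes for subunit 2 of complex IV. In CPM, counts scaled to a common total of all counts of a library, mt-Nd2 ran from 1846 to 6482 with a median of 3636 in high embryos, and from 1048 to 4195 with a median of 2115 in low embryos. The value of mt-Nd3 ran from 480.5 to 1637 with a median of 751 in high embryos, and from 302 to 708 with a median of 446 in low embryos. For mt-Co2 the range was 1230 to 7442 with a median of 3543 in high embryos, and 625.5 to 4079 with a median of 2152 in low embryos. The ranges overlapped for each marker across experiments, but in 18 of 18 high embryos each of the 13 mRNAs lay above the median low embryo of the same experiment. By experiment the mean ratio of high to low embryos ran over the 13 mRNAs from 1.52 to 2.11 in experiment 1, from 1.19 to 2.21 in experiment 2 and from 1.30 to 1.77 in experiment 3. The smallest ratios in experiments 1 and 3 were those of mt-Nd6, a complex I subunit gene and the only one of the 13 on the minus strand.

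The make-up of the mitochondrial RNA differed between the sets by less than the spread among embryos for the 3 most abundant mRNAs. The most abundant mRNA by count was mt-Co1, the catalytic subunit of complex IV, with 23.2% ± 1.77 of the mitochondrial counts in high embryos and 24.5% ± 2.99 in low embryos (SD, n = 18 each). The next was mt-Cytb, the cytochrome b of complex III, with 21.4% ± 3.30 in high and 21.4% ± 3.66 in low embryos. The complex I gene mt-Nd1 followed with 12.5% ± 1.56 in high and 11.9% ± 1.27 in low embryos. Per kilobase of transcript, mt-Cytb led with a mean of 17011 CPM per kb in high and 10591 in low embryos. The lowest was mt-Nd6, with 1213 CPM per kb in high and 849 in low embryos. These orders hold only for counts as assigned to the 13 rows. The mt-Atp6 row had a mean of 3266 CPM in high and 1803 in low embryos. The nuclear row Gm10925, identical to mt-Atp6 over its match, had 11213 and 6078 CPM of nuclear counts and is left out here. The place of mt-Atp6 in these orders is therefore uncertain. A larger share can come from more mitochondrial RNA or from less nuclear RNA in the embryo, and these cannot be told apart in counts that are relative to the library.

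**Figure D2:**
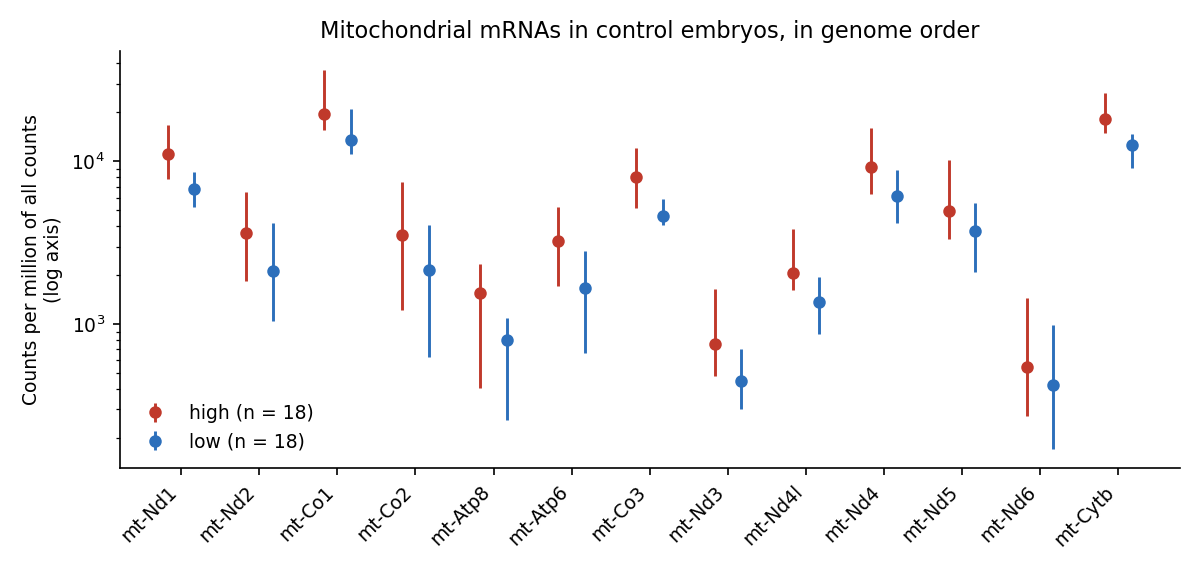
Level of each of the 13 mitochondrial mRNAs (vertical axis, CPM of all counts, log axis) in the 18 high and 18 low control embryos, ordered by position in the mitochondrial genome. Points are medians and bars run from the lowest to the highest embryo, and each high median lies above its low median, for example 3636 against 2115 CPM for mt-Nd2.

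None of the library measures passed the test in control embryos. The total of nuclear counts ran from 2.39 to 11.2 M with a median of 4.15 M in high embryos, and from 3.27 to 14.4 M with a median of 5.11 M in low embryos. The log2 difference was -0.37 (SE 0.17; two-sided permutation test within experiments, 100000 permutations, p = 0.0374, adjusted p = 0.0747 over 12 tests), and by experiment it was -0.65, 0.035 and -0.21. With the log2 nuclear total as a covariate the comparison of nuclear genes described next still called 1 gene, with 315 higher and 216 lower at an unadjusted p under 0.05, against 448 and 342 without it. The number of nuclear genes at 1 CPM or more ran from 13743 to 16430 with a median of 14542 in high embryos, and from 13901 to 15332 with a median of 14612 in low embryos, a mean difference of 192 genes (SE 209, permutation adjusted p = 0.453). Markers of the oocyte and the 2-cell stage were present in both sets. Dppa3, a maternal factor that protects DNA methylation in the zygote, had a median of 1386 CPM in high and 1288 CPM in low embryos, and Zscan4d, a gene of the 2-cell burst, had 92.9 CPM in high and 95.9 CPM in low embryos. Neither these nor Zp3, Gdf9 and Tdpoz3 were at 0 in any of the 36 embryos. Summed markers of cumulus and granulosa cells had a median of 33.9 CPM in high and 28.7 CPM in low embryos, with a highest value of 227 CPM in high and 58.1 CPM in low embryos, and their part in the results was not tested. Summed sperm markers had a median of 15.7 CPM in high and 12.6 CPM in low embryos, with Tnp2 and Smcp at 0 in all high embryos. Summed blood markers had a median of 72.5 CPM in high and 58.3 CPM in low embryos, with the beta-globin genes Hbb-bs and Hbb-bt at 0 in both sets. Marker RNA was between 0 and 0.894 CPM in the high and low control embryos of experiment 1, although the labels give it for all embryos. In the high and low control embryos it ran from 103.5 to 1876 CPM in experiment 2 and from 80.6 to 612 CPM in experiment 3. The log2 difference of marker RNA over the 3 experiments, which includes the embryos near 0, was -0.28 (SE 0.30, permutation adjusted p = 0.453).

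Nr5a2, the gene targeted in the other arm, ran from 51.3 to 244 CPM with a median of 90.0 CPM in high control embryos, and from 45.003 to 253 CPM with a median of 139.8 CPM in low control embryos. The log2 difference of -0.34 (SE 0.20, permutation adjusted p = 0.181) did not pass the test. In knockdown embryos Nr5a2 had a median of 49.7 CPM in high and 53.8 CPM in low embryos, with a log2 difference of -0.17 (SE 0.21, permutation adjusted p = 0.473).

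The question of the main comparison was which nuclear genes differed between embryos rich and poor in mitochondrial RNA. For this the mitochondrial mRNAs were taken out before scaling, so that levels of nuclear genes are CPM of nuclear counts, and 13137 genes were tested with edgeR's quasi-likelihood test and experiment as a factor. One gene rose in the high embryos, 0.00761% of those tested, and 0 fell, 0% of them (Benjamini-Hochberg adjusted p under 0.05). The gene that rose is identical over its match to an mRNA of the share, so its test is not independent of the choice of embryos. By unadjusted p under 0.05, 448 genes (3.41%) were higher and 342 (2.6%) lower, together 6.01%. The median log2 fold change of all genes was -0.014 with a median SE of 0.26, and 98.6% of genes had a fold change smaller than 2 times in either direction. The number called was the same with limma-voom, whereas DESeq2 called 15 higher and 0 lower genes.

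The gene that rose was Gm10925, annotated as an unprocessed pseudogene at chr1:24613974-24614651 on the minus strand of GRCm38 (GENCODE M21). Gm10925 ran from 6911 to 18045 CPM with a median of 10710 CPM in high embryos, and from 4678 to 8280 CPM with a median of 5876 CPM in low embryos, and 18 of 18 high embryos lay above the median low embryo of their experiment. Its log2 fold change was 0.85 (SE 0.11; adjusted p = 7.73e-05 in edgeR), with 1.04, 0.36 and 0.84 in experiments 1, 2 and 3. All 678 bases of its match to mt-Atp6, the mitochondrial gene for subunit a of the ATP synthase, are identical. Their first 120 bases are printed in lower case, from 5′ to 3′, to show that no letter separates them.

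mt-Atp6 (mitochondrial genome, plus strand): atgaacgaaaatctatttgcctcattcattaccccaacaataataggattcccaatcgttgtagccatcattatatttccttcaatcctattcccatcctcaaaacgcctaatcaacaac

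Gm10925 (chromosome 1, minus strand): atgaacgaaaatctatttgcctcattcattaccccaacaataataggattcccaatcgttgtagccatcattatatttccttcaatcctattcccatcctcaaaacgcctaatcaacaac

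Counts assigned to either of these rows therefore cannot be attributed to the nuclear copy or to the mitochondrion. Because mt-Atp6 is part of the share that chose the embryos, the test of Gm10925 is not independent of that choice. Its p-value cannot show that a nuclear gene differed. A search of the GENCODE M21 transcripts for matches of at least 100 bases and 85% identity to mitochondrial transcripts found 20 such genes, and 6 of them passed the low-count filter, which a gene can also pass through its high embryos alone. Gm28661 at chr1:24614885-24615565 matches mt-Co2 over 681 bases with 100% identity. It ran from 326 to 3706 CPM with a median of 1909 CPM in high embryos, and from 178 to 2699 CPM with a median of 727 CPM in low embryos, with 1.21 as its log2 fold change (SE 0.27; adjusted p = 0.26 in edgeR). Gm20594 on chromosome 6 matches the mitochondrial 16S ribosomal RNA gene mt-Rnr2 at 88.4% over 439 bases, and its log2 fold change was 0.58 (SE 0.14; adjusted p = 0.297 in edgeR). The values were 0.82 (SE 0.77) for Gm28437, 0.39 (SE 0.18) for Gm29216 and 0.52 (SE 0.22) for Gm13340. All 6 had positive estimates and 1 passed the test, while 6304 of all 13137 genes had positive estimates. Gm28661, Gm28437 (mt-Co3, 100% identity), Gm29216 (mt-Co1, 99.8%) and Gm13340 (mt-Co1, 97.6%) also match mRNAs of the share. Their estimates are therefore not independent of the choice of embryos either, and their signs are no separate result. Another copy of mt-Co2 was counted far less. Gm13341 on chromosome 2 matches mt-Co2 at 95.9% and held 215 counts over all 111 embryos, against 685503 counts for Gm28661. The first 120 bases of the match are shown for the 3 rows, with the letters that differ from mt-Co2 in capitals.

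mt-Co2 (mitochondrial genome, plus strand): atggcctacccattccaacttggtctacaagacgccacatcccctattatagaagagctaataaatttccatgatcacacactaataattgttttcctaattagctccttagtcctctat

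Gm28661 (chromosome 1, minus strand): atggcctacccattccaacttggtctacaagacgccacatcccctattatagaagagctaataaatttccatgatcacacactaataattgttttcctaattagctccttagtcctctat

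Gm13341 (chromosome 2, minus strand): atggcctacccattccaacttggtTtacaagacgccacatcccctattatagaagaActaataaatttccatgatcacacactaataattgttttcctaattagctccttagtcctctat

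With all such genes left out of the totals and the test, 0 genes were called, with 512 higher and 294 lower at an unadjusted p under 0.05.

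**Figure D3:**
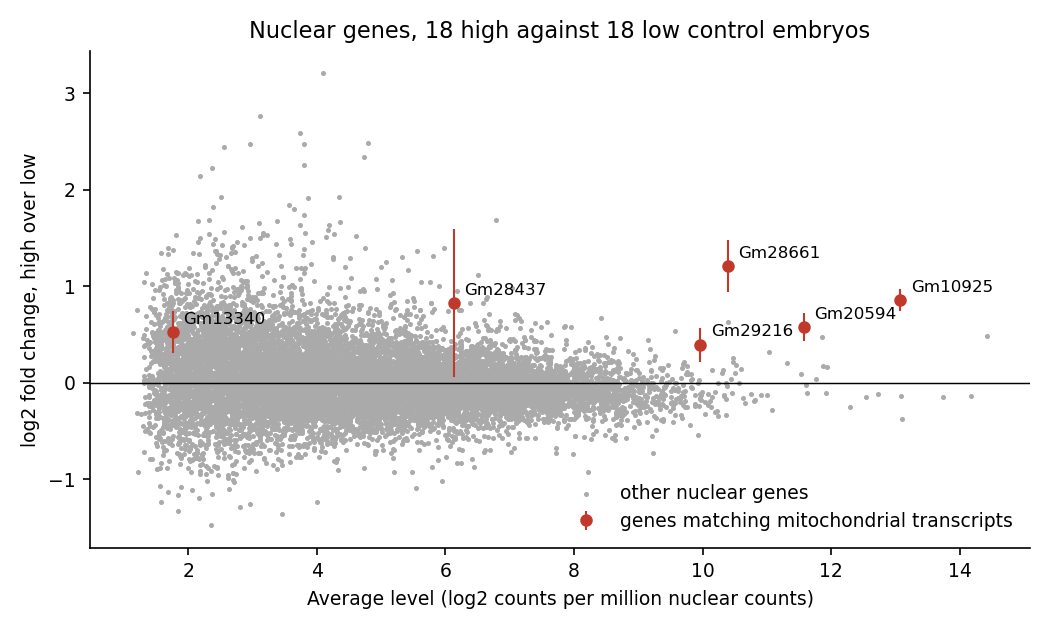
Log2 fold change of high over low control embryos (vertical axis) against average level (horizontal axis, log2 CPM of nuclear counts) for the 13137 nuclear genes tested. Red points with SE bars are the 6 genes that match mitochondrial transcripts, all above 0, and Gm10925 at 0.85 is the gene that passed the test.

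No other nuclear gene passed at an adjusted p under 0.05, the smallest being 0.26. The genes with the smallest unadjusted p are given as values. On the higher side Htatsf1, a splicing-associated factor, ran from 22.7 to 113 CPM with a median of 73.3 CPM in high embryos, and from 21.6 to 76.9 CPM with a median of 34.2 CPM in low embryos. The log2 fold change of Htatsf1 was 0.83 (SE 0.18; adjusted p = 0.26 in edgeR). Nupr1, a stress-induced chromatin protein, had a log2 fold change of 1.317 (SE 0.33) and Nr1d1, the circadian nuclear receptor Rev-erb alpha, 1.17 (SE 0.29). The other 5 were Cited1, a transcriptional co-activator (1.04, SE 0.25), Dgka, a diacylglycerol kinase (0.80, SE 0.20), Bcl2l11, the pro-apoptotic protein Bim (0.75, SE 0.19), Atpsckmt, a methyltransferase of the ATP synthase c subunit (1.51, SE 0.39), and Cramp1l (0.62, SE 0.16). On the lower side Hmgcs1, an enzyme of cholesterol synthesis, ran from 72.2 to 301 CPM with a median of 149 CPM in high embryos, and from 70.7 to 581 CPM with a median of 249.8 CPM in low embryos. The log2 fold change of Hmgcs1 was -0.67 (SE 0.17; adjusted p = 0.297 in edgeR). Cs, the citrate synthase that opens the tricarboxylic acid cycle, had -0.58 (SE 0.17, edgeR adjusted p = 0.561). The others named were Srbd1 (-0.93, SE 0.23), Vps4a, an ATPase of membrane scission (-0.59, SE 0.15), Rabgap1 (-0.60, SE 0.16), Pramel13 (-0.55, SE 0.15) and Pdzk1, a scaffold protein (-1.23, SE 0.36). The high and low embryos overlapped for Htatsf1, Hmgcs1 and Cs. DESeq2 called all 8 of the genes named on the higher side and none named on the lower side. In knockdown embryos Nr1d1 (-0.0058), Bcl2l11 (-0.28) and Cramp1l (-0.61) had negative estimates. The other named higher genes were positive there, from 0.31 for Atpsckmt to 1.07 for Dgka. Of the named lower genes, Hmgcs1 (-0.10) and Cs (-0.083) were negative there. Srbd1 (0.17), Vps4a (0.015), Rabgap1 (0.042), Pramel13 (0.067) and Pdzk1 (0.10) were positive.

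The lists of nuclear genes of mitochondrial biology had no called member in the high-low comparison in edgeR or DESeq2. Atpsckmt, which DESeq2 called, is in none of these lists. Over the 3 experiments the lists had medians between -0.086 and 0.067, beside -0.014 for all genes. For several lists the medians of experiments 1 and 3 had opposite signs. The median of protein import genes was -0.44 in experiment 1 and 0.27 in experiment 3, that of biogenesis regulators -0.31 and 0.22, and that of mitochondrial DNA maintenance -0.28 and 0.12. In knockdown embryos 10 of 36 import genes had positive estimates, with a median of -0.31, and the medians were -0.33 for biogenesis regulators and -0.18 for mitochondrial ribosomal proteins, beside 0.042 for all genes. Of 49 nuclear genes for complex I subunits and assembly factors, 27 had positive and 22 negative estimates with a median log2 fold change of 0.019, and the smallest p was that of Ndufb5 (0.54, SE 0.19). Of 43 genes for complexes II to V, 27 were positive with a median of 0.067, and Sdha, the flavoprotein of complex II, had -0.68 (SE 0.22). Of 74 mitochondrial ribosomal protein genes, 45 were positive with a median of 0.050, with Mrpl27 at 0.68 (SE 0.25). The 22 genes for transcription and maintenance of mitochondrial DNA had a median of -0.027, with Polg2, the accessory subunit of the mitochondrial DNA polymerase, at 0.90 (SE 0.31). The median was -0.086 over 31 genes of mitochondrial RNA processing and decay, where Ptcd1 had -0.44 (SE 0.19). It was 0.012 over 19 translation factors, where Noa1, a GTPase of mitochondrial ribosome assembly, had 0.57 (SE 0.18). It was 0.048 over 36 protein import genes, where Timm21 had -0.39 (SE 0.19), and -0.063 over 28 genes of the tricarboxylic acid cycle and pyruvate oxidation. The 38 genes of mitochondrial dynamics and mitophagy had a median of -0.069, with Sqstm1, an autophagy receptor, at 0.55 (SE 0.18). The 18 regulators of mitochondrial biogenesis had -0.012, with Prkaa2, a catalytic subunit of AMP-activated kinase, at -0.61 (SE 0.29), and the sign of Prkaa2 and of Ptcd1 turned in experiment 1 alone.

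Lists of general cell functions also had no called member in edgeR, while DESeq2 called Nupr1 of the stress response list and Bcl2l11 of the p53 and apoptosis list. The 81 cytosolic ribosomal protein genes had 74 positive estimates but a median of 0.11, which was -0.22 in experiment 1 and 0.42 in experiment 3. The same genes in knockdown embryos had 8 positive estimates of 81 and a median of -0.25. The 80 ribosome biogenesis genes had medians of -0.51 in experiment 1 and 0.34 in experiment 3, and -0.42 over the 3 experiments in knockdown embryos. The 64 oocyte-deposited transcripts had medians of 0.31 in experiment 1 and -0.46 in experiment 3. The 29 genes of the 2-cell burst had a median of 0.12, with 0.60 in experiment 1 and 0.058 in experiment 3. In knockdown embryos 23 of 28 were positive with a median of 0.56, which was 1.02 in experiment 1 and 0.026 in experiment 3, and none was called. In control embryos Usp17la of this list had 1.12 (SE 0.58). The 42 genes of G2 and mitosis had 7 positive estimates and a median of -0.16, with -0.33 in experiment 1 and 0.093 in experiment 3, and in knockdown embryos a median of -0.27. The p53 targets and apoptosis genes had a median of -0.11 over 22 genes in knockdown embryos and 0.16 over 23 genes in control embryos. The 25 genes of the integrated and mitochondrial stress response had a median of 0.067, the 27 redox defence genes 0.097, with Gpx3 at 0.34 (SE 0.15), and the 20 genes of glycolysis 0.017, with Pkm at -0.25 (SE 0.11). The 26 heat shock chaperones had a median of -0.00099, with Bag3 at 0.55 (SE 0.19), and the 50 DNA replication genes -0.021, with Pold3 at -0.54 (SE 0.22). Among the ribosome and mitosis lists the members with the smallest p were Rpl7a (0.36, SE 0.16), Nop14 (0.35, SE 0.22) and Ttk (-0.57, SE 0.21), and among the oocyte list Nobox (-0.83, SE 0.29). Of the marker lists of other cells, 4 cumulus and granulosa, 2 sperm and 4 blood genes passed the filter, led by Vim (1.53, SE 0.78), Oaz3 (0.31, SE 0.30) and Hba-a2 (0.49, SE 0.29), and none was called.

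**Figure D4:**
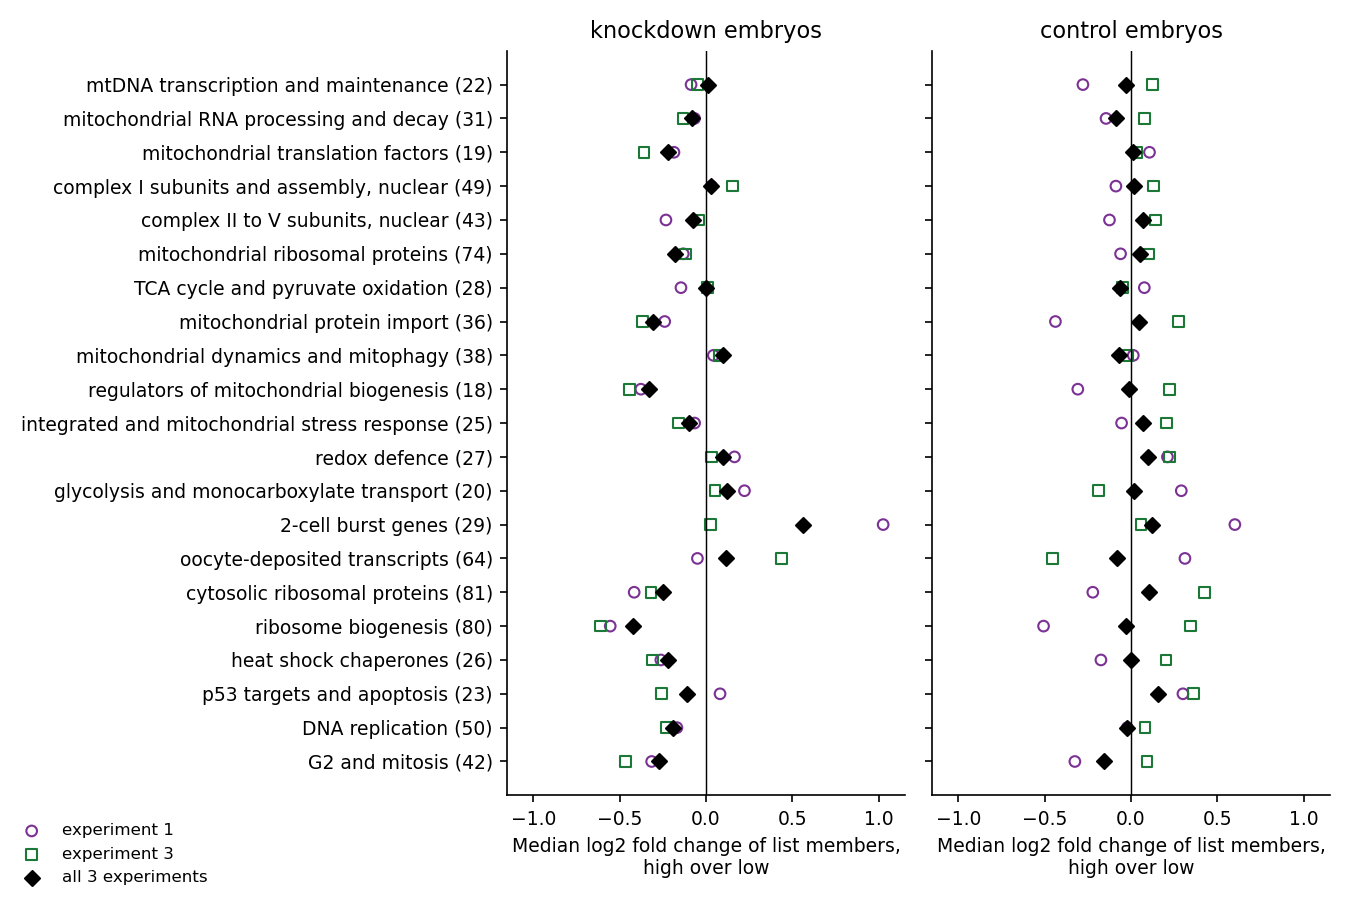
Median log2 fold change of high over low embryos (horizontal axis) for each gene list (rows, with the number of members tested in control embryos), in knockdown embryos on the left and control embryos on the right. Diamonds are fits over the 3 experiments and open symbols fits of experiments 1 and 3 alone, and for cytosolic ribosomal proteins the control medians of -0.22 and 0.42 lie on both sides of 0.

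The contrast between high and low control embryos was also compared between the large experiments. In a test of the difference between experiments 3 and 1 over 13190 genes, 0 passed at an adjusted p under 0.05 (0%), while 2187 had an unadjusted p under 0.05 (16.6%), of which 885 were higher in experiment 3 and 1302 lower. High and low embryos of experiment 2 numbered 2 each, so from its fit alone only fold changes are given.

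The knockdown embryos gave a separate measurement of the same contrast. Of 12949 genes tested 1 rose (0.00772%) and 0 fell (0%). Unadjusted p-values under 0.05 were found for 857 genes on the higher side (6.62%) and 617 on the lower side (4.76%), together 11.4%. High knockdown embryos had on average 466.1 more genes detected than low ones (SE 201, permutation adjusted p = 0.0747), and with this number as a covariate the counts were 205 and 106. The called gene was again Gm10925, whose test is not independent of the choice of embryos in this arm either. It ran from 7250 to 21858 CPM with a median of 11362 CPM in high knockdown embryos. In low knockdown embryos it ran from 3880 to 10641 CPM with a median of 6738 CPM. The log2 fold change of Gm10925 was 0.86 (SE 0.13, adjusted p = 0.000757 in edgeR). Of the 413 genes at an unadjusted p under 0.05 and higher in high control embryos, tested in both arms and not matching mitochondrial transcripts, 319 (77.2%) had a positive estimate in knockdown embryos and 120 also an unadjusted p under 0.05. Of all 12719 genes, 53.9% had a positive estimate in knockdown embryos. Of the 340 genes lower in high control embryos by the same measure, 160 (47.1%) had a negative estimate in knockdown embryos and 17 also an unadjusted p under 0.05, where 46.1% of all genes were negative. The difference of the contrast between knockdown and control embryos was called for 0 of 13300 genes (0%), with 633 at an unadjusted p under 0.05 (4.76%).

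Dividing the embryos into sets leaves out 20 control embryos. With the share used as a number over all 56 control embryos, the fit gives for each gene a slope, the change in log2 CPM per doubling of the share. Of 16426 genes tested, 86 rose with the share (0.524%) and 17 fell with it (0.103%) at an adjusted p under 0.05 in edgeR. Of the 86, 3 match mitochondrial transcripts, namely Gm10925 (slope 1.24, SE 0.11), Gm28661 (1.89, SE 0.35) and Gm20594 (0.80, SE 0.19). Gm10925 and Gm28661 are identical over their matches to mRNAs that make up the share, so their slopes are not independent of it. Of the other 83 genes 62 had passed the filter of the high-low comparison, where edgeR called none and DESeq2 called 7. Both fits use the same high and low embryos. The 83 genes include Gm4301, Gm4308 and Gm4312, whose slopes and SEs are the same (3.41, SE 0.69), so they may not be separate measurements. Some others had counts in few of the 56 embryos, such as Btbd35f12 in 7, Mtnr1a in 15 and Ush1g in 16.

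The genes that rose with the share included several of known function. Of those averaging 4 or more on the log2 CPM scale, those named had the smallest p. Atp6v0e2, a subunit of the vacuolar proton pump, ran from 14.8 to 113 CPM with a median of 51.2 CPM in high embryos, and from 10.8 to 83.4 CPM with a median of 25.9 CPM in low embryos, with 40.6 CPM as the median of the middle embryos. Its slope was 1.41 (SE 0.27, edgeR adjusted p = 0.0096), that is 2.66 times per doubling of the share. Churc1, a zinc-binding factor, ran from 14.8 to 305 CPM with a median of 107 CPM in high embryos, and from 17.2 to 238 CPM with a median of 54.9 CPM in low embryos, with a slope of 1.59 (SE 0.32, edgeR adjusted p = 0.0105). The high and low embryos overlapped widely for both. Cpox, an enzyme of heme synthesis in mitochondria, had a median of 65.6 CPM in high and 33.1 CPM in low embryos and a slope of 1.49 (SE 0.33). Pola2, the regulatory subunit of DNA polymerase alpha, had medians of 239.5 and 143 CPM in high and low embryos and a slope of 1.09 (SE 0.24). Nupr1 had a slope of 1.71 (SE 0.36), Zan, the sperm-egg adhesion protein zonadhesin, 1.98 (SE 0.43), and Brms1l, a member of a histone deacetylase complex, 1.02 (SE 0.23). From the gene lists, the called members that rose included Polg2 (1.397, SE 0.36), Ddit3, the stress factor CHOP (1.26, SE 0.31), Gadd45g (2.31, SE 0.57), Bcl2l11 (0.95, SE 0.23) and Phlda3 (4.51, SE 1.05), besides Nupr1 and Pola2. Phlda3 had counts in 18 of the 56 embryos. The stress list had 2 of 27 members called and the p53 and apoptosis list 3 of 27, beside 0.524% of all genes. The lists of mitochondrial DNA and DNA replication had 1 each of 25 and 50. In knockdown embryos 0 members of these lists were called. The median slope of the stress list was -0.074 in control and -0.14 in knockdown embryos, and that of the p53 list 0.35 and -0.059. The knockdown slopes were -0.14 (SE 0.27) for Bcl2l11, 0.85 (SE 0.58) for Gadd45g and 2.02 (SE 1.19) for Phlda3.

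Among the 17 that fell with the share, Cs ran from 137 to 456.5 CPM with a median of 305 CPM in high embryos, and from 249 to 1048 CPM with a median of 406 CPM in low embryos, with 362 CPM as the median of the middle embryos. Its slope was -0.92 (SE 0.18, edgeR adjusted p = 0.0105). Hmgcs1 had a slope of -0.93 (SE 0.20, edgeR adjusted p = 0.0166) and medians of 144 CPM in high and 249.9 CPM in low embryos. Birc3, an inhibitor of apoptosis, had medians of 105 CPM in high and 124 CPM in low embryos and a slope of -1.30 (SE 0.27). The others by the same rule were Srbd1 (-1.19, SE 0.26), Pabpc4, a poly(A)-binding protein (-0.78, SE 0.18), Nup62, a nuclear pore protein (-0.64, SE 0.15), Lmo7 (-1.04, SE 0.24) and Klhl8 (-0.99, SE 0.23). Cs was the 1 called member of 29 in the list of the tricarboxylic acid cycle, beside 0.103% of all genes that fell. The chaperone Dnaja2 was the called member of the heat shock list (-0.61, SE 0.16). Lists without a called member included nuclear respiratory chain genes, mitochondrial and cytosolic ribosomal proteins and the 2-cell burst.

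**Figure D5:**
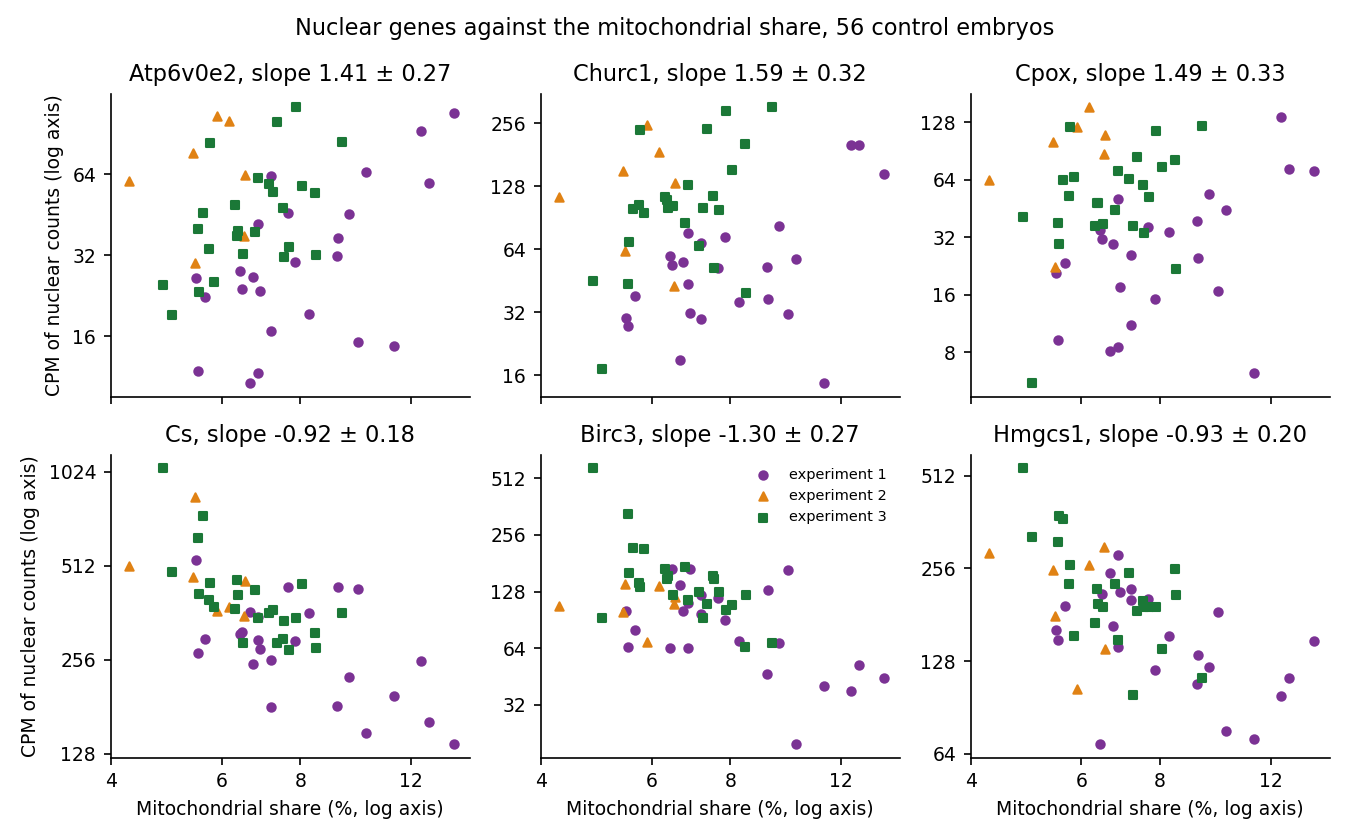
Level of 6 nuclear genes (vertical axes, CPM of nuclear counts, log axes) against the mitochondrial share (horizontal axis, percent, log axis) in the 56 control embryos, with 1 point per embryo and symbols for the experiment. Each title gives the slope in log2 units per doubling of the share with its SE, for example 1.41 ± 0.27 for Atp6v0e2 and -0.92 ± 0.18 for Cs.

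The slopes were measured again in the 55 knockdown embryos, where 29 genes rose (0.184%) and 1 fell (0.00633%) of 15797 tested. Of all genes tested in knockdown embryos, 52.8% had a positive slope, and 12.8% had an unadjusted p under 0.05 in either direction. The slopes of 66.2% of all genes tested in both arms had the same sign in both. Of the 83 genes that rose in controls, 79 were tested in knockdown embryos, where Gm4301, Gm4308 and Gm4312 again had equal slopes (2.91, SE 0.90). Of the 79, 75 had a positive slope. Of these 75, 64 had an unadjusted p under 0.05 and 6 an adjusted p under 0.05. The 6 were Obox4-ps14, Obox4-ps27, Obox4-ps28, Gm8947, Gm47985 and Gm47995. The first 3 are pseudogene copies of an oocyte and embryo homeobox gene, and reads of near-identical copies can be split between rows, so their values are uncertain. Obox4-ps28 had a slope of 3.85 (SE 0.86) in knockdown and 2.80 (SE 0.68) in control embryos. Among the named genes, Cpox had a slope of 1.10 (SE 0.28) in knockdown embryos, Brms1l 0.88 (SE 0.23) and Atp6v0e2 1.06 (SE 0.35), none with an adjusted p under 0.05. Of the 17 genes that fell in controls 16 had a negative slope in knockdown embryos, 3 of them with an unadjusted p under 0.05, and the slopes of the 8 named genes were closer to 0 than in controls. Cs had -0.20 (SE 0.21) and Hmgcs1 -0.28 (SE 0.21) in knockdown embryos, and the difference between the arms was 0.71 (SE 0.28, edgeR adjusted p = 0.999) for Cs and 1.38 (SE 0.36, adjusted p = 0.878) for Srbd1. In the test of the difference of slopes 3 of 17418 genes passed (0.0172%), all with counts in 18 or fewer of the 111 embryos, and 569 had an unadjusted p under 0.05 (3.27%).

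The number of slopes called depended on the embryos and the model. Without experiment 3, 2 genes rose and 0 fell, and without experiment 1, 8 rose and 90 fell, of which 4 and 7 were among the genes called over all embryos. With the nuclear total of each embryo as a covariate 9 rose and 2 fell. Cs (slope -1.003), Srbd1 (-1.44) and Atp6v0e2 (1.44) still passed. The other genes named by the smallest p did not, for example Churc1 (1.48, edgeR adjusted p = 0.114) and Hmgcs1 (-0.94, edgeR adjusted p = 0.104). With the number of genes detected as a covariate 5 rose and 12 fell. None of the rising genes named by the smallest p then passed, with Atp6v0e2 at 1.18 (edgeR adjusted p = 0.0534). Cs, Birc3, Srbd1, Pabpc4 and Klhl8 still did. The slope of Lmo7 was -2.20 without experiment 1 and -0.40 without experiment 3, that of Srbd1 -1.99 without experiment 1, and that of Birc3 -0.86 without experiment 3.

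Repeat RNA also has rows in the deposited table, which were chosen after their values were seen. B1 SINE counts, which come from a family of short interspersed repeats, ran from 31.4 to 119 CPM with a median of 52.8 CPM in high control embryos, and from 23.7 to 59.2 CPM with a median of 39.0 CPM in low control embryos, a log2 difference of 0.37 (SE 0.14, permutation adjusted p = 0.0457). The difference was 0.63, 0.29 and 0.13 in experiments 1, 2 and 3, and it did not pass without experiment 1 or without experiment 3. In knockdown embryos the B1 medians were 67.3 CPM in high and 45.6 CPM in low embryos, a log2 difference of 0.67 (SE 0.17, permutation adjusted p = 0.0018), which did not pass without experiment 3 (0.59). B2 SINE counts had medians of 62.2 CPM in high and 37.1 CPM in low control embryos, a log2 difference of 0.61 (SE 0.25, permutation adjusted p = 0.0579), and 0.74 (SE 0.25, permutation adjusted p = 0.0288) in knockdown embryos, which did not pass without experiment 1 (0.63) or without experiment 3 (0.81).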

How the data were processed

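Single 2-cell embryos of a 3-experiment siRNA study were compared within the control arm. Per the submitters' processing notes, bcl2fastq, Trim Galore 0.6.2 and kallisto 0.46.1 were used. The authors made, as deposited, one estimated count (expected count) per transcript and embryo with kallisto, not normalized. The deposited comparison table, with its log2 fold changes and p-values, served here only to name genes. No source used here names the index annotation, so positions are from GENCODE M21 (GRCm38).

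The 119358 transcripts were summed to 36161 genes and rounded. The gene came from the deposited table for 117282 transcripts and from GENCODE M21 for 379, and 1697 without a gene stayed out of totals and tests, with 0.468% to 1.12% of the counts. No per-sample column was unmatched. Library totals ran from 2.76 to 15.4 M in the 36 embryos. The strand was not recorded and no molecular identifiers were used, so overlapping genes can share reads. The highest r between libraries was 0.952, so none was counted more than once. Each embryo counted as 1 sample; the labels do not say which shared a mother, so p-values measure the spread between these embryos.

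The nuclear tests ran in R 4.3.3 with edgeR 4.0.16 and limma 3.58.1: mitochondrial mRNAs removed, filterByExpr by set, TMM, quasi-likelihood F-test with experiment as factor, Benjamini-Hochberg at 0.05, 32 residual degrees of freedom, biological coefficient of variation 0.598. SEs come from the fold change and F. CPM are TMM-scaled, except for mitochondrial mRNAs, identity markers, the summed markers of other cells and the limit for genes detected. Per-embryo CPM of marker RNA, Nr5a2 and SINE rows used TMM factors over all 111 embryos. Slopes on log2 share used all embryos of an arm, with filterByExpr by the design. Per-embryo quantities were compared by permutation within experiments, on the log2 scale except for the number of genes detected (marker RNA with a pseudocount of 1 CPM). Scripts were tested on simulated counts. Copies of mitochondrial DNA were found with BLAST 2.17.0.

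The members and gene lists were chosen with earlier results of these data known. Named were the 8 genes per direction with the smallest p and an average log2 CPM of at least 4 (since fewer than 5 were called per direction), the list members called or else with the smallest p, and Nr5a2; the rule was used again for slopes. Some genes that meet the rule are not reported here. Alternatives included DESeq2 1.42.0, limma-voom, other scalings, filters, set sizes, covariates and experiments left out.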

Additional observations from a re-analysis of the deposited data

Results flagged for a closer look

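Of 17418 genes, 3 had a slope on the mitochondrial share that differed between knockdown and control embryos at an adjusted p under 0.05 in edgeR. The difference in log2 units per doubling was 9.53 for Tchhl1, -8.76 for Olfr1506 and 8.56 for Gm45837. They had counts in 18, 7 and 13 of the 111 embryos and 180, 120 and 481 counts in all, and were chosen after their values were seen.

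Over 70 combinations of a measure and a set of 5 to 8 embryos of 1 experiment, 11 had an embryo far from the others. In all 11 it was the embryo with the highest value. The measures include the share that cut the sets, and how often such gaps arise by chance in these values was not tested. Among high control embryos of experiment 1, embryo 20 had 11.2 M nuclear counts with the next at 4.33 M. Embryo 12 of this set had 0.894 CPM of marker RNA with the next at 0.382 CPM, both near 0. Embryo 1 had 118.7 CPM of B1 SINE with the next at 65.0 CPM. Among low control embryos of experiment 1, embryo 18 had 51.1 CPM of B2 SINE with the next at 29.6 CPM. In experiment 3, high control embryo 8 had 580.2 CPM of marker RNA with the next at 229 CPM, and 244 CPM of Nr5a2 with the next at 119 CPM. Low control embryo 6 of that experiment had 612 CPM of marker RNA with the next at 281 CPM. Among knockdown embryos, high embryo 5 of experiment 3 had a share of 14.3% with the next at 11.1%, and high embryo 7 of experiment 2 had 128 CPM of Nr5a2 with the next at 59.7 CPM. Low embryo 7 of experiment 1 had 20.0 M nuclear counts with the next at 6.79 M, and low embryo 1 of experiment 3 had 8.14 M with the next at 5.29 M.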

How the results depend on the processing

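No paired analysis was possible because the high and low embryos of a comparison come from the same labelled group and share no embryo number. The share is by definition the sum over the 13 mitochondrial mRNAs, so deriving it from these alone is the same rule and no separate check. In control embryos 1 gene was called higher with other scalings, filters, limma-voom, smaller sets, covariates and without experiment 2. It was 0 with genes matching mitochondrial DNA left out (by construction), and 0 without experiment 1 or 3 and in experiments 1 or 3 alone; 3 between the embryos above and below the middle, 15 with DESeq2 and, with the share as a number, 86 higher and 17 lower. In knockdown embryos the higher calls were 6 without a filter, 5 (and 1 lower) at 10 CPM or more in 18 embryos, 78 (and 9 lower) with DESeq2, 2 between embryos above and below the middle, 29 (and 1 lower) with the share as a number, and 0 with genes matching mitochondrial DNA left out, without any 1 experiment and in experiments 1 or 3 alone. For these changes the cause was not tested.

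Slope calls, with alternatives chosen after seeing the data, were 170 positive and 29 negative with DESeq2, 51 positive with limma-voom, 9 and 2 with the nuclear total and 5 positive with genes detected as covariate, 8 and 90 without experiment 1, 140 and 28 without experiment 2, 2 and 0 without experiment 3, 23 and 10 in experiment 1 alone, and 6 and 61 in experiment 3 alone.

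The sign turned in experiment 1 alone for Ptcd1 (0.075), Prkaa2 (0.16), Nobox (0.020) and Bag3 (-0.13), and in experiment 3 alone for Vim (-0.040). Per-embryo differences in control embryos were 0.16 for B1 SINE without experiment 1 and 0.56 without experiment 3, no longer past the test, and 0.71 for B2 SINE without experiment 2, past it. In knockdown embryos they were 670.8 genes detected without experiment 2, past the test, and not past it for B1 SINE without experiment 3 (0.59) and B2 SINE without experiment 1 (0.63) or 3 (0.81). The sign turned for marker RNA without experiment 2 (-0.21) and for Nr5a2 without experiment 3 (0.23).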

Other observations

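Genes were also picked by an unadjusted p under 0.01 in the high-low comparison of both arms (edgeR) and the same sign in both. Of 12719 genes tested in both arms 22 met this, and the estimates of all 22 were positive. The equal sign in both arms was set by the choice, which was made after the values were seen. They included Cox14, an assembly factor of complex IV, with a log2 fold change of 0.74 (SE 0.19) in knockdown and 0.62 (SE 0.21) in control embryos, and Bad, a pro-apoptotic protein of the mitochondrial surface, with 1.502 (SE 0.53) in knockdown and 0.95 (SE 0.31) in control embryos. Il11, a cytokine gene, had 0.97 (SE 0.27) in knockdown and 1.01 (SE 0.28) in control embryos, Dlg4, a synaptic scaffold gene, 1.23 (SE 0.33) in knockdown and 1.19 (SE 0.32) in control embryos, and Trpm2, a calcium channel gene, 1.01 (SE 0.32) in knockdown and 0.83 (SE 0.29) in control embryos. None of these passed the adjusted test of the high-low comparison in edgeR, while Dlg4, Cox14 and Trpm2 passed in the slope fit over all control embryos.

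By transcript length, genes of up to 931.5 bases had a median log2 fold change of -0.0099 in knockdown and -0.00049 in control embryos, and genes in the longest of 3 classes 0.069 in knockdown and -0.026 in control embryos.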
